A study of Homo sapiens with 11 samples.

Results

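Genes of DNA repair were examined in SCC9, an established human line of tongue squamous carcinoma cells. The list held 45 genes that remove or bypass the lesions left by crosslinking drugs. A listed gene was kept where the deposited values held a probe set of its own. Where there were several, the one brightest on average over the 11 arrays stood for it. This gave 38 repair genes out of the 8549 genes measured. All 12 genes of nucleotide excision repair were measured, with 3 of 7 of the Fanconi anaemia route, 10 of 11 of homologous recombination, 3 of 4 of mismatch repair, 1 of 2 of translesion synthesis, all 6 of base excision and single-strand break repair, and all 3 subunits of replication protein A. FANCA, FANCE, FANCF, FANCL, BRCA2, POLH and PMS2 had no probe set of their own in the deposited values and were not analysed here. Whether the array itself carries one was not examined. The probe set of PMS2 is shared with PMS2CL.

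SCC9 cells received cisplatin at 0.5 µmol/L, nimesulide at 100 µmol/L or both together. Cisplatin is a platinum compound that forms crosslinks in DNA, and nimesulide preferentially inhibits cyclooxygenase-2. Control dishes were handled alike without a drug. Affymetrix human arrays were lettered by replicate: A, B and C for control, cisplatin and nimesulide (3 arrays each), and A and B for the combination (2 arrays). All arrays came from this one cell line, and the time between drug addition and RNA isolation was not given in the sources used here. Levels are log2 intensities per probe set, so a difference of 1 is a doubling, and each contrast below is a difference of treatment means on that scale.

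Cisplatin adducts are met by several repair routes. Nucleotide excision repair cuts out a short strand around a lesion that distorts the helix. The Fanconi anaemia proteins unhook links between opposite strands, translesion polymerases copy past what remains, and homologous recombination restores the break that results. Mismatch repair proteins also recognise platinated bases, base excision repair mends small base lesions and single-strand breaks, and replication protein A coats the single strands exposed in nearly all of these routes. Expression of ERCC1, which forms the nuclease that makes one of the excision cuts with ERCC4, is widely studied in relation to the response of tumours to platinum drugs.

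Array values of the same treatment correlated at 0.996 to 0.998 over all probe sets (10 pairs), and those of different treatments at 0.995 to 0.998 (45 pairs). Of the markers of squamous epithelium in the list used here, CDH1, the adhesion protein of epithelia, had a mean level of 10.6, SFN of 10.5 and the basal keratin KRT5 of 7.70. DSP, EGFR and KRT16 were at 8.70, 8.17 and 7.01, DSG3 at 5.63 and another basal keratin, KRT14, at 5.22. Array means of this list ran from 7.75 to 8.15. Lists of 6 fibroblast and 5 leukocyte markers had array means of 4.53 to 4.64 and 4.85 to 4.93. Their highest genes, DCN at 5.50 and CD3E at 6.23, lay above KRT14. The endothelial list ranged from 3.96 to 4.15, and its arrays of the combination (3.96 to 4.07) lay at the low end beside those of the control (4.07 to 4.13). The part of that difference in the results below was not tested.

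No repair gene passed the test in any of the 6 contrasts. The test was limma's moderated test over all 16383 probe sets, with an adjusted p under 0.05 as the threshold. Few probe sets of any kind passed it: 0% with cisplatin, 0.0061% with nimesulide and 0% in each of the other 4 contrasts. The 1 that did was IRF7, a transcription factor of the interferon response, which fell by 0.61 log2 units with nimesulide (SE 0.07, adjusted p = 0.00727). IRF7 is no repair gene and is named because it is the whole count. What follows describes the levels and differences of the repair genes with their intervals, and a p above the threshold does not show that treatments act alike. The median SE of a difference was 0.08 for 3 arrays against 3 and 0.09 for 2 against 3. Mean levels of the repair genes ran from 3.94 (RAD52) to 10.03 (FANCG), with a median of 6.84. Genes below the median of all genes (5.87) included ERCC2 and XRCC2 at 4.85, ERCC6 at 5.41 and LIG3 at 5.58.

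**Figure D1:**
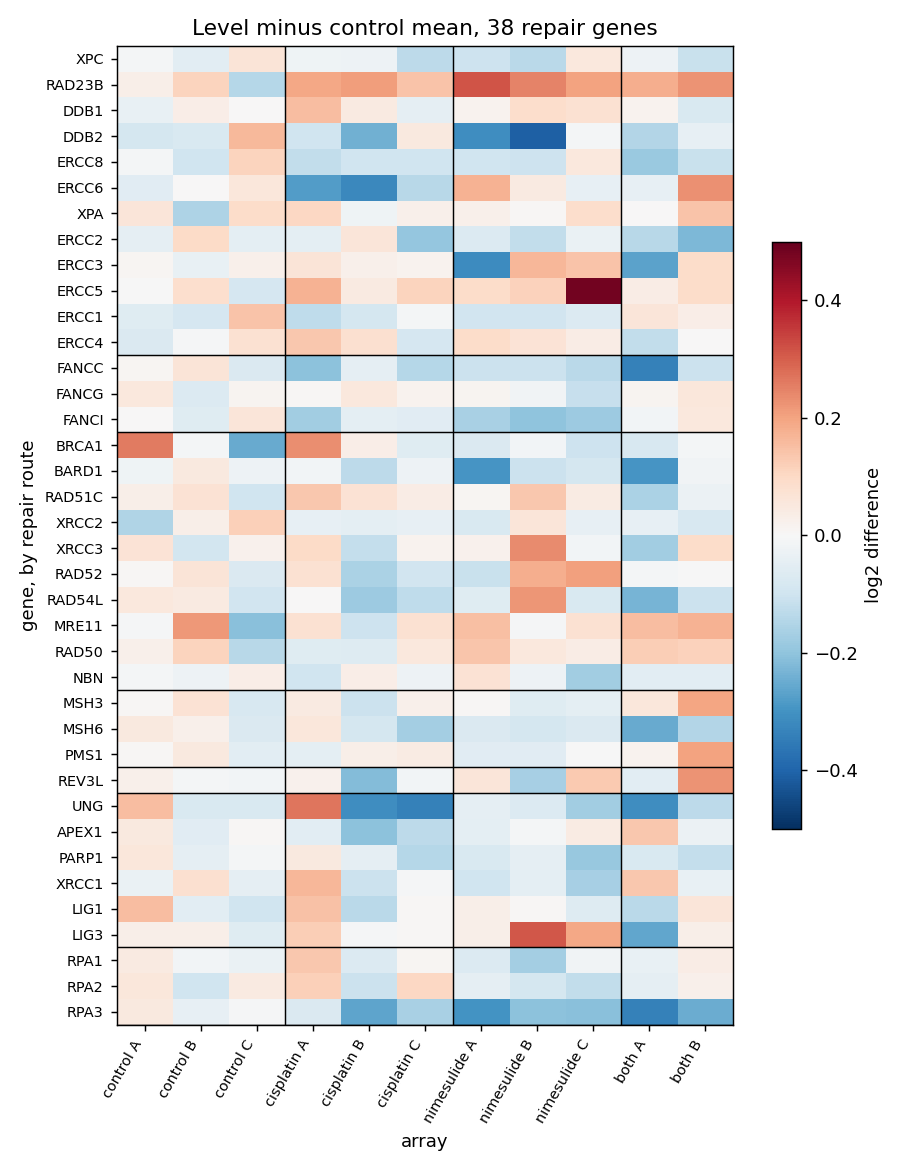
Level of each of the 38 repair genes (rows, ordered by repair route and separated by lines) on each of the 11 arrays (columns), as the log2 difference from the gene's control mean. RAD23B is above its control mean on all 8 treated arrays and RPA3 below it, while most rows mix colours within a treatment.

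The regulatory DNA just before the start site is shown for 2 of these genes, ERCC6 and RAD23B, which had the smallest unadjusted p with cisplatin and differed in direction. RAD23B holds XPC, the sensor of distorted DNA, in a stable form. ERCC6 is the remodelling factor that acts when RNA polymerase stalls at a lesion. Both sequences are the 250 bases upstream of the first listed start in RefSeq on GRCh38.p14, 5′ to 3′ on the strand of the gene. Capitals mark matches on either strand to TTTNNCGC, CCAAT and GGGCGG (the GC box), and GCATGCGC (the NRF1 motif). Overlapping matches form 1 run of capitals. TTTNNCGC, where N is any base, is an E2F-like pattern looser than the E2F consensus of genes of S phase. RAD23B lies on the plus strand at chr9:107283029-107283278 and ERCC6 on the minus strand at chr10:49539122-49539371.
RAD23B: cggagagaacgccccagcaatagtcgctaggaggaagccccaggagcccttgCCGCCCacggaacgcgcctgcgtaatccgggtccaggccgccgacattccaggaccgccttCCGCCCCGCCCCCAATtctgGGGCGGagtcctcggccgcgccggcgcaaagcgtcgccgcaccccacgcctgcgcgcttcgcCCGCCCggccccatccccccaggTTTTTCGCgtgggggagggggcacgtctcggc
ERCC6: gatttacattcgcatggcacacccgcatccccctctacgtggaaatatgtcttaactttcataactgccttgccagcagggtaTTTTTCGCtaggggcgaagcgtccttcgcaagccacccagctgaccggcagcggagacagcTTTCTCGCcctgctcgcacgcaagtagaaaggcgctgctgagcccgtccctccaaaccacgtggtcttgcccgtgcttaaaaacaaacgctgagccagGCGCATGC
RAD23B thus carries the TTTNNCGC, CCAAT and GC box letters, and ERCC6 those of TTTNNCGC and NRF1 without CCAAT or a GC box. Over the 34 measured repair genes with a promoter sequence, 6 held TTTNNCGC (17.6%). So did 5.93% of all 27305 promoters and 8.24% of those of the 6835 array genes with a sequence. CCAAT was found in 12 (35.3%, against 33.0% and 35.5%), the GC box in 24 (70.6%, against 42.3% and 60.4%) and the NRF1 motif in 3 (8.82%, against 2.81% and 3.66%). The 6 with TTTNNCGC were XPC, RAD23B, ERCC6, FANCC, MSH3 and LIG1. FANCI, NBN, RPA2 and RPA3 had no promoter sequence used here, so their motifs were not examined. A match describes these letters only and does not locate a bound factor.

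The first contrast, cisplatin against control, concerns the repair genes under the crosslinking drug alone. With cisplatin, 16 repair genes had a higher mean and 22 a lower one, and their median difference was -0.03. Over all 8549 genes the median was -0.01 and 57.4% were lower, so the repair genes lay close to the array as a whole. The lowest difference was that of ERCC6 at -0.25 and the highest that of RAD23B at 0.18. All 38 intervals (95%) lay within 0.5 log2 units of 0. Their outermost bounds were -0.43 and 0.34, which are folds of 0.743 and 1.26. For each of the 38 probe sets that stand for the genes, a change beyond those bounds lies outside its interval. The bounds do not cover the further probe sets that some of these genes have.

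At an unadjusted p under 0.05 there were 3 repair genes with cisplatin, ERCC6, RAD23B and RPA3, where 4.06% of all genes were. The same 3 were those whose cisplatin arrays did not overlap the controls. RAD23B was the 1 repair gene apart on the high side (3.38% of all genes were), and ERCC6 and RPA3 were the 2 on the low side (5.31%).

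ERCC6 stood at 5.39, 5.44 and 5.50 in controls A, B and C and at 5.16, 5.12 and 5.30 with cisplatin. It was at 5.61, 5.49 and 5.40 with nimesulide and at 5.40 and 5.67 with both. The cisplatin arrays were the 3 lowest of the 11, and the other treatments overlapped the controls. The mean level of ERCC6 over the 11 arrays was 5.41. This was below the median of all genes (5.87) and near the fibroblast marker COL1A2 (5.39). Cisplatin minus control was -0.25 (SE 0.08, adjusted p = 0.968). By letter, A gave -0.22, B -0.32 and C -0.20. ERCC6 is one of the pair of transcription-coupled repair factors measured here. The other, ERCC8, which belongs to the ubiquitin ligase recruited to stalled polymerase, was at -0.11 (SE 0.07).

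RAD23B stood at 9.59, 9.68 and 9.42 in controls and at 9.76, 9.77 and 9.71 with cisplatin. It was at 9.88, 9.81 and 9.77 with nimesulide and at 9.75 and 9.79 with both. All 8 treated arrays lay above the 3 controls, and the treated groups overlapped one another. Cisplatin minus control was 0.18 (SE 0.07, adjusted p = 0.968). The array carries 2 further probe sets for RAD23B, at mean levels of 8.55 and 2.91, and these were at 0.03 and 0.09. With the median of the 3 probe sets taken on each array the difference was 0.03, so its size rests on 1 of them. Without control C, the lowest array, it was 0.11.

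RPA3, the smallest subunit of the single-strand binding complex, stood at 10.10, 10.01 and 10.05 in controls and at 9.98, 9.79 and 9.89 with cisplatin. It was at 9.76, 9.85 and 9.84 with nimesulide and at 9.72 and 9.81 with both. Every treated array was below every control. Cisplatin minus control was -0.17 (SE 0.07, adjusted p = 0.968). The partners RPA1 and RPA2, which form the complex with it, were at 0.02 and 0.04 with cisplatin, so the 3 subunits did not share a sign. RAD23B was the only repair gene with all 8 treated arrays above the controls (0.597% of all genes were), and RPA3 the only one with all 8 below (0.924%). The 3 treatments share these controls, so their differences are not independent of one another.

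**Figure D2:**
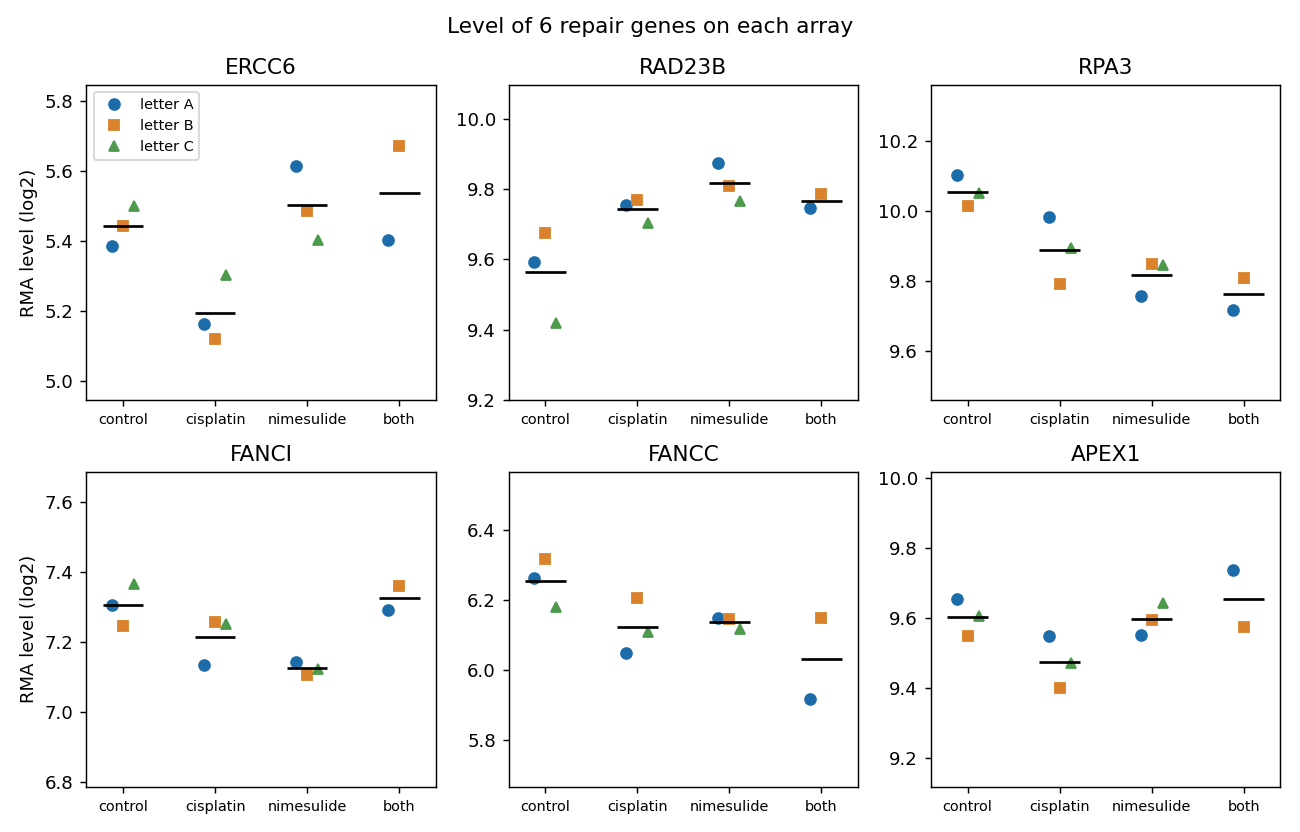
RMA level (log2) of 6 repair genes on each array, by treatment on the horizontal axis, with 1 point per array (shape and colour give the replicate letter) and a black bar at the treatment mean. All panels span 0.9 log2 units. ERCC6 is lowest on the 3 cisplatin arrays (5.12 to 5.30), RAD23B is higher and RPA3 lower on all 8 treated arrays than on the controls, and the nimesulide arrays of FANCI lie together at 7.11 to 7.14.

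The other nucleotide excision repair genes gave smaller differences with cisplatin. ERCC1 stood at 7.84, 7.82 and 8.04 in controls and at 7.77, 7.81 and 7.89 with cisplatin. The groups overlapped, and the difference was -0.08 (95% interval -0.23 to 0.07). It was -0.12 without control B and -0.0043 without control C. Its partner in the nuclease, ERCC4, stood at 5.60, 5.67 and 5.75 in controls and at 5.80, 5.75 and 5.59 with cisplatin, a difference of 0.04 (-0.11 to 0.20). ERCC4 was higher within letters A and B and lower within C. XPA, which verifies the lesion, stood at 6.16, 5.95 and 6.19 in controls and at 6.21, 6.08 and 6.12 with cisplatin. Its difference was 0.04 (-0.13 to 0.20), with overlapping groups. XPC stood at 7.09, 7.05 and 7.17 against 7.09, 7.08 and 6.97, a difference of -0.06 (-0.21 to 0.09). These 4 genes, the core of recognition and of one incision, thus had intervals that include 0. Of the rest, the lesion-binding DDB1 was at 0.05 and its partner DDB2 at -0.10. The TFIIH helicases ERCC2 and ERCC3 were at -0.06 and 0.04, and ERCC5, the nuclease of the other incision, was at 0.11.

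In the Fanconi anaemia route, FANCC and FANCG belong to the core complex that tags FANCI and its partner with ubiquitin. FANCC was at -0.13 with cisplatin, FANCG at 0.03 and FANCI at -0.09. FANCI has a second probe set at nearly the same mean level (7.18 beside 7.23), and that one was at 0.26 (unadjusted p = 0.0189 by limma). The 2 probe sets of FANCI therefore disagree in sign with cisplatin. This second probe set was singled out after its values were seen.

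Homologous recombination had 3 of its 10 measured genes higher and 7 lower with cisplatin, from -0.10 for RAD54L, a motor protein of strand exchange, to 0.08 for RAD51C. BRCA1, which prepares broken ends for recombination, stood at 7.89, 7.62 and 7.38 in controls and at 7.87, 7.66 and 7.57 with cisplatin. The 3 controls spread over 0.51, far more than the difference of 0.07 (-0.17 to 0.30). BARD1, its partner, was at -0.06. XRCC2 and XRCC3, which assist recombination, were at -0.04 and -0.0022, and the strand-annealing protein RAD52 was at -0.06. Among the end-processing trio, MRE11 was at 0.02, RAD50 at -0.02 and NBN at -0.03. The other probe sets of NBN, at mean levels of 8.08 and 7.08, were at -0.07 and -0.27 (unadjusted p = 0.365 and 0.0164 by limma). The size of its difference thus depends on the probe set. These probe sets of NBN were singled out after their values were seen.

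Mismatch repair genes lay nearer 0. MSH3 and MSH6, which take part in finding mismatches, were at -0.01 and -0.07, and PMS1 was at 0.01. REV3L, the catalytic subunit of the translesion polymerase zeta, stood at 6.07, 6.03 and 6.03 in controls and at 6.07, 5.83 and 6.03 with cisplatin. Array B alone set its difference of -0.07 (-0.27 to 0.13), and without that array it was 0.0045. In base excision and single-strand break repair, UNG, which removes uracil, was at -0.13 and APEX1, which cuts the strand where a base is missing, also at -0.13. PARP1, the sensor of single-strand breaks, was at -0.05, the scaffold XRCC1 at 0.02, and the ligases LIG1 and LIG3 at 0.01 and 0.04. For UNG the cisplatin arrays stood at 7.78, 7.20 and 7.18, so letter A was above the controls (7.67, 7.44 and 7.44) and the other 2 below. UNG was singled out after its values were seen.

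Within letters, 2 repair genes were higher with cisplatin in A, B and C alike, RAD23B and RAD51C, where 11.3% of all genes were. Another 8 were lower in all 3 letters, where 17.1% of all genes were. These were DDB2, ERCC6, ERCC2, ERCC1, FANCC, RAD54L, APEX1 and RPA3.

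**Figure D3:**
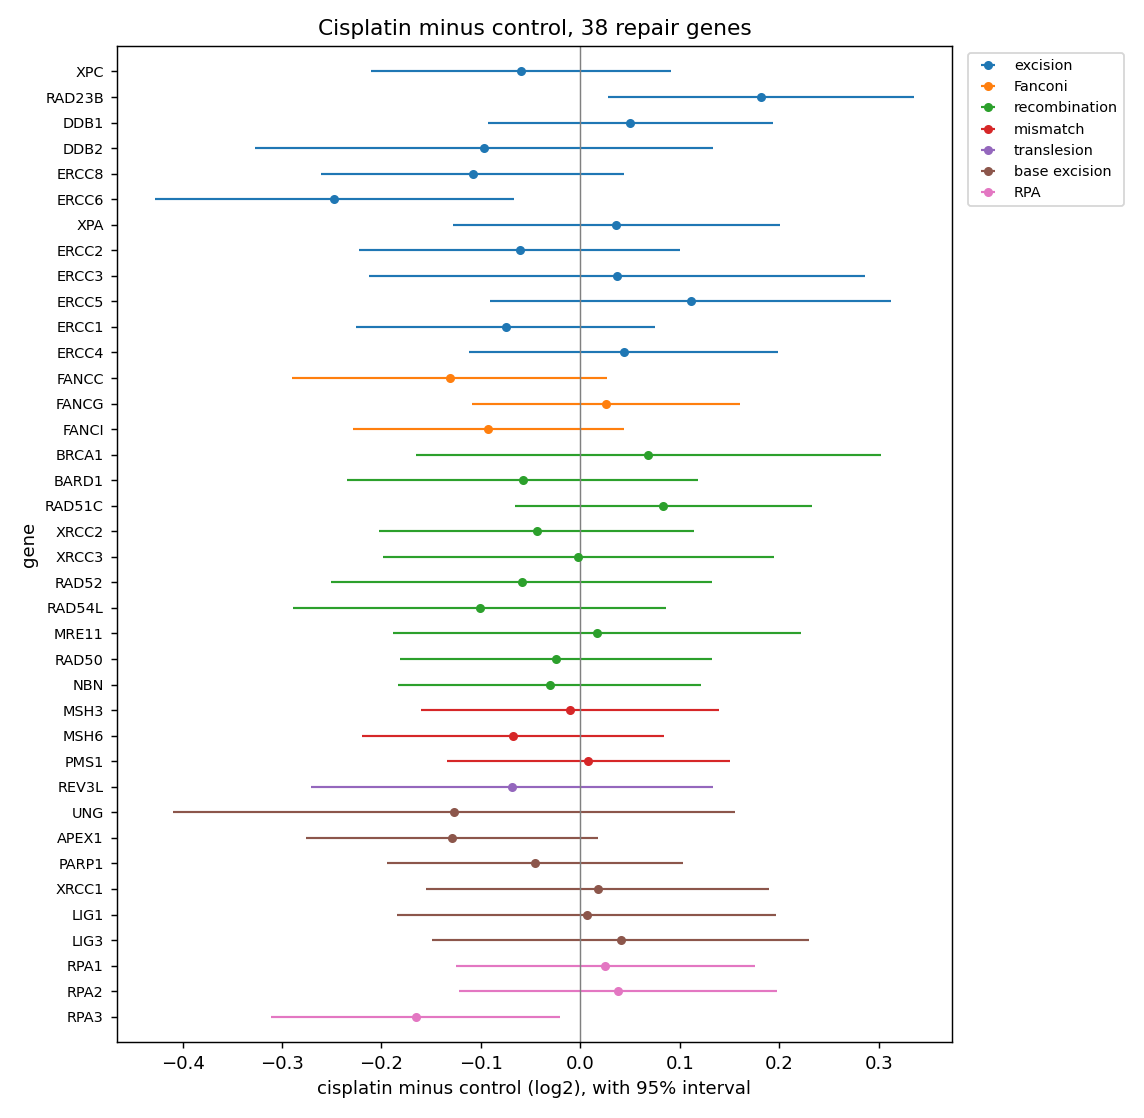
Cisplatin minus control (log2, horizontal axis) for each of the 38 repair genes, with the 95% interval from the limma fit as a bar, coloured by repair route. The interval excludes 0 for RAD23B, ERCC6 and RPA3 before adjustment, and no bar reaches beyond -0.43 or 0.34.

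The contrast of nimesulide with control concerns the repair genes under the anti-inflammatory drug alone. Their median difference was -0.04, with 14 higher and 24 lower, beside 0.00 and 51.2% lower over all genes. Differences ran from -0.24 for DDB2 to 0.25 for RAD23B. At an unadjusted p under 0.05 there were 5 repair genes, RAD23B, ERCC5, RPA3, FANCI and DDB2, where 5.90% of all genes were. RAD23B and ERCC5 were the 2 whose nimesulide arrays all lay above the controls (4.59% of all genes did). FANCC, FANCI, BARD1, XRCC1 and RPA3 were the 5 whose arrays all lay below (5.26%).

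RAD23B had the smallest p of the repair genes with nimesulide, at 0.25 (SE 0.07, adjusted p = 0.736), and its other probe sets were at 0.10 and 0.11. With the median of the 3 taken on each array it was at 0.10. By letter, its difference was 0.28 in A, 0.13 in B and 0.35 in C. RPA3 followed at -0.24 (SE 0.07, adjusted p = 0.736), with -0.35, -0.16 and -0.20 within letters. RPA1 and RPA2 were both at -0.09, so all 3 subunits had a lower mean with nimesulide. FANCI stood at 7.31, 7.25 and 7.37 in controls and at 7.14, 7.11 and 7.12 with nimesulide. The groups did not overlap, at a difference of -0.18 (SE 0.06, adjusted p = 0.906). It stood at 7.13, 7.26 and 7.25 with cisplatin and at 7.29 and 7.36 with both, so the combination arrays lay within the range of the controls. The second probe set of FANCI was at 0.06 with nimesulide.

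ERCC5 and DDB2 were singled out after their values were seen. ERCC5 stood at 6.24, 6.33 and 6.16 in controls and at 6.34, 6.36 and 6.73 with nimesulide. Letter C set most of its difference of 0.23 (SE 0.09, adjusted p = 0.906), with 0.09, 0.03 and 0.56 within letters. DDB2, which binds damaged chromatin and is itself a p53 target, stood at 7.27, 7.28 and 7.52 in controls and at 7.05, 6.95 and 7.35 with nimesulide. The groups overlapped, since letter C was high in both, but the difference was negative within each letter (-0.22, -0.33 and -0.17). The fit gave -0.24 (SE 0.11, adjusted p = 0.910).

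The always-described genes lay nearer 0 with nimesulide. ERCC1 stood at 7.80, 7.80 and 7.83, ERCC4 at 5.76, 5.74 and 5.71 and XPA at 6.13, 6.11 and 6.19. XPC stood at 7.0, 6.97 and 7.16, BRCA1 at 7.56, 7.62 and 7.53 and REV3L at 6.10, 5.88 and 6.17. All 6 overlapped the controls, with differences from -0.09 for ERCC1 to 0.07 for ERCC4. By route, all 3 Fanconi, all 3 mismatch repair and all 3 replication protein A genes had a lower mean, with medians of -0.12, -0.04 and -0.09. Nucleotide excision repair was divided 6 and 6 (median 0.02), and 6 of 10 recombination genes were higher (median 0.04). In base excision repair 5 of 6 were lower, and the exception was LIG3 at 0.18. Within letters, 3 repair genes were higher in A, B and C alike (RAD23B, DDB1 and ERCC5, beside 12.8% of all genes), and 9 were lower (14.6%).

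Combination against control compares cells given both drugs with untreated cells. The combination has no array of letter C, so differences that involve it also carry any difference of letter C from A and B. The median difference of the repair genes was -0.04, with 14 higher and 24 lower, beside -0.02 and 57.8% lower over all genes. At an unadjusted p under 0.05 there were 5, where 8.73% of all genes were. RPA3 had the smallest, at -0.29 (SE 0.08, adjusted p = 0.330), the lowest difference of any repair gene in this contrast. FANCC followed at -0.22 (SE 0.08, adjusted p = 0.527), then RAD23B at 0.20 (SE 0.08, adjusted p = 0.552), or 0.13 without control C and 0.05 with the median of its probe sets. ERCC2 at -0.18 and MSH6 at -0.20 made up the 5.

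FANCC stood at 6.26, 6.32 and 6.18 in controls, at 6.05, 6.21 and 6.11 with cisplatin and at 6.15, 6.14 and 6.12 with nimesulide. With both drugs it stood at 5.92 and 6.15. Array A of the combination was the lowest of the 11, and array B lay within the nimesulide range. The difference from control was -0.34 on array A alone and -0.11 on array B alone, so 1 array decides its size. MSH6 is covered by 3 probe sets, and the 2 with the higher levels were at -0.20 and -0.17. The third, at a mean level of 3.37, was at -0.02.

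Across the repair genes, 2 had both combination arrays above all controls, RAD23B and RAD50 (9.70% of all genes did). Below all controls were 9, namely ERCC8, ERCC2, FANCC, RAD54L, NBN, MSH6, UNG, PARP1 and RPA3 (14.9%). With 2 arrays such separation is common over the whole array. Within letters A and B alike, 8 repair genes were higher (22.2% of all genes were) and 14 lower (29.6%). ERCC1 stood at 7.96 and 7.93, ERCC4 at 5.55 and 5.67, XPA at 6.10 and 6.24, and XPC at 7.08 and 6.99. BRCA1 stood at 7.55 and 7.62 and REV3L at 5.99 and 6.27. All 6 overlapped the controls. The widest interval of a repair gene reached -0.54 on the low side, for UNG, and 0.39 on the high side.

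The combination was then set against cisplatin alone, which concerns the addition of nimesulide. Here too only the cisplatin side has an array of letter C. The median difference of the repair genes was -0.03, with 15 higher and 23 lower, beside 0.00 and 51.0% lower over all genes. At an unadjusted p under 0.05 there were 3, ERCC6, APEX1 and RAD51C, where 6.96% of all genes were. ERCC6 was higher in the combination by 0.34 (SE 0.09, adjusted p = 0.471), and by 0.24 and 0.55 within letters A and B. Without array B of the combination it was higher by 0.21. This contrast uses the same 3 low cisplatin arrays as cisplatin against control, and ERCC6 in the combination was at 0.09 against control.

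APEX1 stood at 9.65, 9.55 and 9.61 in controls, at 9.55, 9.40 and 9.47 with cisplatin and at 9.55, 9.59 and 9.64 with nimesulide. With both drugs it stood at 9.74 and 9.57. The combination did not overlap cisplatin, at 0.18 (SE 0.08, adjusted p = 0.667), and without array A of the combination the difference was 0.10. RAD51C, which acts early and late in recombination, stood at 7.10, 7.14 and 6.96 in controls, at 7.20, 7.14 and 7.10 with cisplatin and at 7.08, 7.20 and 7.11 with nimesulide. It stood at 6.91 and 7.03 with both, below all cisplatin arrays, at -0.18 (SE 0.08, adjusted p = 0.685), and at -0.11 without array A of the combination. The other probe set of RAD51C was at 0.13 in this contrast, the opposite sign. Groups apart on the high side were 7 repair genes (10.3% of all genes were), namely ERCC6, ERCC1, FANCI, MRE11, RAD50, MSH3 and APEX1. RAD51C was the 1 on the low side (10.7%).

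Combination against nimesulide gave 2 repair genes at an unadjusted p under 0.05, where 7.29% of all genes were. LIG3, the ligase that works with XRCC1, was at -0.29 (SE 0.10, adjusted p = 0.716), and FANCI at 0.20 (SE 0.07, adjusted p = 0.718). LIG3 stood at 5.57, 5.86 and 5.74 with nimesulide and at 5.28 and 5.57 with both, so the groups met at 5.57. There were 7 repair genes apart on the high side (8.66% of all genes) and 7 on the low side (13.4%). The interaction, the combination minus both single agents plus control, asks whether the 2 drugs together differ from the sum of their differences. It gave 5 repair genes at an unadjusted p under 0.05, where 4.34% of all genes were, with FANCI at 0.29 (SE 0.09), LIG3 at -0.33 (SE 0.13), ERCC6 at 0.28 (SE 0.13), RAD51C at -0.24 (SE 0.10) and RAD23B at -0.23 (SE 0.11). Each had an adjusted p = 0.963. Against control, the second probe set of FANCI was at 0.26 with cisplatin, 0.06 with nimesulide and 0.20 with both. The other of RAD51C was at 0.02, 0.10 and 0.15. For these genes the interaction therefore has the opposite sign on the other probe set. On the other probe sets of LIG3 and RAD23B it kept its sign. With the letters as a block in limma, DDB2 had the smallest p of the repair genes, at 0.34 (SE 0.11, adjusted p = 0.625). LIG3 and DDB2 were singled out after their values were seen.

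Replicate letters spread the repair genes about as far as the treatments did. Over the 9 arrays of control, cisplatin and nimesulide, the range of the 3 letter means exceeded that of the 3 treatment means in 20 of 38 repair genes (52.6%), and in 54.5% of all genes. BRCA1 ranged over 0.28 by letter and 0.13 by treatment. DDB2 ranged over 0.31 by letter and 0.24 by treatment, and UNG over 0.32 and 0.13. ERCC6 and RPA3 lay at the other end, with ranges of 0.31 and 0.24 by treatment beside 0.05 and 0.06 by letter. Of the 13 repair genes with several probe sets, 7 had the same sign in all of them with cisplatin, 8 with nimesulide, 8 with the combination against control and 7 with the combination against cisplatin.

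**Figure D4:**
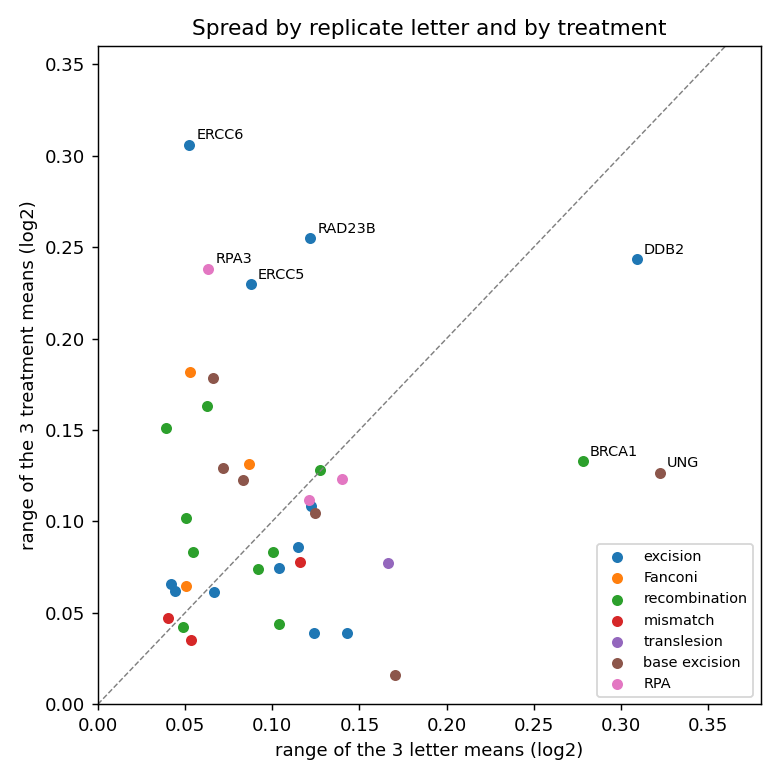
Range of the 3 treatment means (log2, vertical axis) against the range of the 3 letter means (log2, horizontal axis) over the 9 arrays of control, cisplatin and nimesulide, with 1 point per repair gene coloured by route. Points right of the dashed line of equality (20 of 38) varied more by letter than by treatment, as BRCA1 and UNG did, and ERCC6 and RPA3 lie far above it.

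Of 52 further repair genes 22 were measured, and of 20 genes of end joining and damage signalling 17, and 0 of either list passed in any contrast by limma. At an unadjusted p under 0.05 they held 0 genes each with cisplatin and 1 each with nimesulide. Their medians with cisplatin were -0.01 and 0.00. The damage-signalling histone H2AX was at -0.21 with nimesulide (SE 0.06, adjusted p = 0.836), and XRCC5, which holds broken ends for joining, at -0.15. A list of 18 genes of the p53 response, which also holds the repair genes XPC, DDB2 and POLH, had 11 measured and 0 passed by limma. At an unadjusted p under 0.05 there was 1 with cisplatin, TNFRSF10B, and 1 with nimesulide, DDB2. The death receptor TNFRSF10B was at 0.17 with cisplatin (SE 0.07, adjusted p = 0.968) and MDM2, the p53 inhibitor, at -0.11. Of the genes of replication and entry into S phase, 28 were measured and none passed in limma. With cisplatin 22 were lower (median -0.11), beside 57.4% of all genes, and 5 were at an unadjusted p under 0.05, beside 4.06%. With nimesulide 28 were lower (median -0.12), beside 51.2%, and 9 were at that p, beside 5.90%. With the combination 26 were lower (median -0.19), beside 57.8%, and 14 were at that p, beside 8.73%. These shares describe the list and were not tested against the other genes. The helicase subunit MCM4 was at -0.25 with cisplatin (SE 0.07, adjusted p = 0.968), POLA1, of the polymerase that begins DNA strands, at -0.25 with nimesulide, and CCNE1, the cyclin of S phase entry, at -0.28 with the combination. RPA3 was lower in the same 3 contrasts, and the part of these levels in its difference was not tested. In RNA from a whole culture, fewer cells that express a gene and less RNA of it per cell cannot be told apart.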

How the data were processed

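Total RNA of SCC9 cells was hybridised to 11 Affymetrix human arrays, 1 per sample. The authors deposited log2 intensities per probe set and, per the labels, summarised them with RMA, which corrects the background and sets the arrays to a common distribution. A shift of all transcripts one way would not be visible in such values. Neither the version of RMA nor the set of arrays it was run on is given in the sources used here. Array medians ran from 5.37 to 5.43.

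All 16383 probe sets were fitted with a mean per treatment in limma (version 3.58.1, lmFit then eBayes, under R 4.3.3), which left 7 residual degrees of freedom. Tests were two-sided, with Benjamini-Hochberg adjustment over all probe sets within each of 6 contrasts, and the threshold was an adjusted p of 0.05. The fit was tested on simulated data. Of the probe sets, 14045 had 1 gene symbol, 792 several and 1546 none. The number of arrays limits the precision. The labels mention triplicates without saying whether cultures were separate. The p-values therefore reflect only how far these samples spread, which may be technical.

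The repair genes and the other lists were chosen with earlier results of these data known. Every repair gene is named. Values on each array are given for the 3 with the smallest unadjusted p in cisplatin, nimesulide and the combination against control and in the combination against cisplatin, and always for ERCC1, ERCC4, XPA, XPC, BRCA1 and REV3L. Of each other list the 2 genes with the smallest p were open to naming. Alternatives were a replicate block, each array left out, other normalisation and moderation, fewer probe sets or arrays, and the median over a gene's probe sets. Promoter letters are from RefSeq.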

Additional observations from a re-analysis of the deposited data

How the results depend on the processing

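The count of repair genes past the threshold was 0 in all 6 contrasts under each of the 19 alternatives that could be fitted to them. Over all probe sets the number of calls did depend on the fit. With the letters as a replicate block it was 37 with nimesulide, 33 for the combination against control and 37 for the combination against cisplatin, and with complete sets A and B and that block 7 and 9 in the last 2. The smallest adjusted p of a repair gene with the replicate block was 0.743 with cisplatin (ERCC6), 0.309 with nimesulide (RAD23B), 0.240 for the combination against control (RPA3) and 0.214 against cisplatin (ERCC6). Once treatment means were removed, 15 pairs of arrays sharing a letter correlated at 0.0831 to 0.355 (median 0.179), and 30 pairs with different letters at -0.251 to 0.144. Whether letters mark shared cultures is not stated. With trend and robust moderation there were 2, 5 and 3 calls in these 3 contrasts, 2 for the combination against cisplatin after quantile normalisation, and 0 with nimesulide when only the groups compared were fitted. Leaving out single arrays gave 0 to 4 calls with nimesulide, 0 to 1 for the combination against control and 0 to 4 against cisplatin. Such fits also spread the median of the repair genes from -0.0532 to 0.000208 for the combination against control, from -0.0490 to 0.0183 against cisplatin, from -0.0519 to 0.0114 against nimesulide and from 0.00064 to 0.0604 for the interaction. With array medians set equal, that median was 0.0049 with cisplatin, 0.0010 for the combination against control and 0.029 against nimesulide. With cisplatin, leaving out single arrays turned the sign of ERCC4 (-0.0013 to 0.11), XPA (-0.041 to 0.083), BRCA1 (-0.057 to 0.20) and REV3L (-0.11 to 0.0045), and XPC was at 0.0088 in the complete sets A and B with the block. BRCA1 was at -0.057 without control C and at -0.014 without cisplatin A. The cause of these shifts was not tested. The differences recomputed for ERCC1, ERCC6, RAD23B, RPA3, FANCI, FANCC, APEX1 and RAD51C, in the contrasts where the rule for values on each array named them, kept their sign under all 19 alternatives. Several of these cannot alter a given difference. ERCC6 with cisplatin stayed at -0.247 with the replicate block and without any array of nimesulide or the combination. Except for the median over a gene's probe sets, all used the brightest probe set. The others of FANCI with nimesulide (0.06) and RAD51C against cisplatin (0.13) had the opposite sign. So had the dimmest of RAD23B with the combination (-0.0036). Those of ERCC1 with cisplatin and of RAD23B with either drug alone kept it. Differences of the other repair genes were not recomputed. The precision is limited by 2 or 3 arrays per treatment, and RMA may understate differences of dim probe sets.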
